A study of Mus musculus with 2 samples.

Results

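The genes described here are a module of 40 genes expressed by Kupffer cells, monocytes, neutrophils and other myeloid cells, measured in mouse liver RNA. Members were listed by gene symbol, and a probe set was taken for a member where the array's annotation gave it exactly 1 symbol. All 40 members of the 18193 named genes on the array were found, with 72 probe sets. The 2 samples were liver RNA pools of wild-type male mice of C57BL/6J, a common inbred strain, housed singly and 5 months old. In the ad libitum (AL) pool, 3 mice had eaten freely for 12 weeks from 8 weeks of age. In the calorie-restricted (CR) pool, 3 mice had received 20% less food in the first week and 40% less in the following 11 weeks. RNA of the mice of a diet was mixed in equal amounts and 1 Affymetrix array was run per diet, so the spread between mice is unknown, no p-value can be given and the number of arrays limits every value. Values are intensities normalized by RMA, a method that brings arrays to a common distribution, and differences are given on the log2 scale as CR minus AL, so that a value below 0 means a lower intensity after restriction.

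Kupffer cells are the resident macrophages of the liver and sit in the sinusoids, where they take up particles, dying red cells and bacteria from portal blood. Monocytes and neutrophils reach the liver from the circulation, and all these cells derive from precursors that depend on the transcription factor PU.1. Fc receptors on myeloid cells bind antibody-coated targets and signal through adaptors that carry activation motifs, whereas class II molecules display peptides to helper T cells.

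In the CR pool 4 members were at least 2-fold lower, and the other 33 measured members lay within 2-fold. The alarmin genes S100a8 and S100a9 stood at -2.29 and -1.75, and the lysozyme genes Lyz1 and Lyz2 at -1.34 and -1.39. No member was at least 2-fold higher. Among 6 markers of resident Kupffer cells, 5 lay below 0 and Cd163 above, with a median of -0.35. The class II genes had a median of 0.06 over 4 genes.

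A gene was counted as measured if the higher of its 2 intensities reached 7.38, the median of all values on both arrays, and it was represented by its brightest probe set. By that rule 37 members were measured. Cd68, Itgam and Cx3cr1 were not, with intensities of 7.30 in AL and 4.28 in CR for the macrophage lysosomal protein Cd68, 4.12 and 4.59 for the CD11b integrin chain Itgam, and 7.33 and 7.02 for the fractalkine receptor Cx3cr1. Of the 37, 4 (10.8%) were at least 2-fold lower in CR, against 2.79% of the 12644 measured genes, and 0 were at least 2-fold higher, against 1.80%. Lyz1 and Lyz2 are counted apart here, although their separate levels are uncertain. The members were chosen with earlier results of these data known, so the shares given here describe them and are no test. At the milder limit of 1.5-fold, 10 members (27.0%) were lower, against 9.49% of measured genes, and 1 (2.70%) was higher, against 6.76%. With values below the limit raised to it, 9 members were 1.5-fold lower, without Timd4, against 8.86% of measured genes. In all, 23 members (62.2%) lay below 0, against 52.1% of measured genes. All counts below 0 of single groups and lists in this report are to be read beside that share. The members' median difference was -0.11, beside -0.02 over all measured genes, and without the S100a and lysozyme genes it was -0.09 over 33 members. The 25th percentile of the members was -0.68, against -0.29 for all measured genes, so the lower part of the module reached beyond the 4 genes past 2-fold. In a bulk sample, fewer cells of a type and less RNA per cell cannot be told apart.

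**Figure D1:**
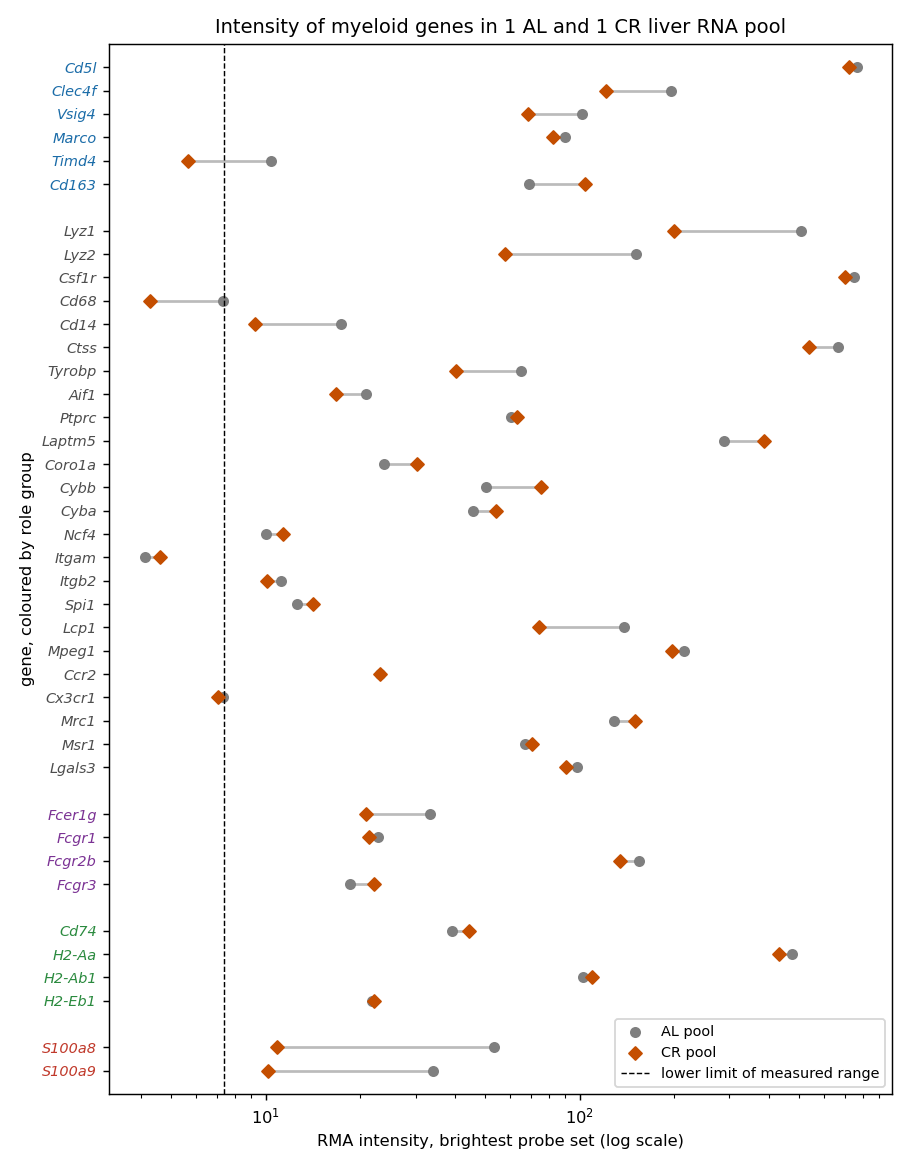
Intensity of each member in the AL pool (grey circle) and the CR pool (orange diamond), on a log axis, for the brightest probe set of the gene, with names coloured by role group. The widest gaps belong to S100a8 (53.4 against 10.9), S100a9 (34.1 against 10.2), Lyz1 (507 against 199.97) and Lyz2 (151 against 57.7), and the dashed line at 7.38 marks the lower limit of the measured range.

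Over the 45101 probe sets the AL array had a median intensity of 7.35 and the CR array 7.42. Hepatocyte markers, the check of the labelled tissue, had a summed intensity of 58922.4 in AL and 56958.5 in CR over 8 measured genes. The brightest, such as Alb with 12765 and 11794, made up most of it, and Ass1 was dim, with 13.0 and 11.0. Control probe sets for the beta-actin and Gapdh transcripts were lower in CR, by -0.67 to -1.61, and the 3' to 5' signal ratio of beta-actin was 83.5 in AL and 89.7 in CR, a strong 3' bias on both arrays. The ratio of 3' to middle probe sets was higher in CR, at 20.4 against 11.1 in AL for beta-actin and 6.04 against 4.46 for Gapdh. The part of this bias in the results was not tested. All differences are relative to the typical gene. Scaling the arrays on the hybridisation spikes instead would shift the whole table down by 1.02, or by 0.37 on the cre spike alone, and no member would then be 2-fold higher. On all spikes, 54.2% of measured genes would be at least 2-fold lower and 0.261% higher, so the signs of single members below hold only against the typical gene.

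The 2 neutrophil genes of the module had its largest differences. S100a8 and S100a9 encode calcium-binding proteins that pair as calprotectin, which neutrophils and monocytes hold in large amounts and release at sites of inflammation. S100a8 gave 53.4 in the AL pool and 10.9 in the CR pool, a ratio of 4.91. S100a9 had 34.1 in AL and 10.2 in CR, a ratio of 3.35. Each rested on 1 probe set, and the S100a8 probe set was of the _s_at type, which can match several transcripts. In CR both genes lay just above the lower limit of 7.38, so their levels in that pool are close to values that the table, which gives no detection calls, does not separate from background. Among the 3161 measured genes with a mean intensity of 12.0 to 26.7, the class that holds both genes, 2.59% were at least 2-fold lower.

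Other neutrophil and monocyte genes were dim and differed by less. Of 20 such genes on a list that shares no gene with the module, 15 had a probe set and 10 were measured. Of these, 9 lay below 0 and 1 above, with a median of -0.33 (-0.24 with values below the limit raised to it). Of the 10, 1 differed by 2-fold or more. Over all measured genes, 52.1% lay below 0 and 2.79% were at least 2-fold lower. The gene past 2-fold was Plac8, a cysteine-rich protein of myeloid and other leukocytes, at -1.04, from intensities of 16.9 (AL) and 8.21 (CR). Granule genes, which define neutrophils and their precursors, were in part measured. The protease genes Elane, with 23.3 in AL and 16.4 in CR, and Prtn3, with 28.0 and 21.4, stood at -0.50 and -0.39, and Ngp and Mmp9 at -0.23 and -0.26. Lcn2 had 8.31 in AL and lay below the limit in CR, and Mmp8, Camp, Ltf and Mpo were below it in both pools. The summed intensity of the 10 measured genes was 154 in AL and 117 in CR, and that of S100a8 and S100a9 together 87.5 and 21.0.

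Among lists of other blood cells, 1 erythroid and 1 B cell gene were at least 2-fold lower in CR, as were 2.79% of all measured genes. The erythroid gene Alas2, which starts heme synthesis in red cell precursors, had intensities of 40.2 (AL) and 7.43 (CR), a difference of -2.43, and it was 1 of 2 measured genes on a list of 7, the other being the membrane protein gene Epb42 at 0.02. The immunoglobulin heavy chain gene Ighm of B and plasma cells had 6 measured probe sets from -1.23, the brightest, to -0.20. The other measured genes of that list were the immunoglobulin joining chain gene Jchain at -0.76, Cd22 at -0.11, Mzb1 at 0.03 and Pax5 at 0.20. Whether the amount of blood or blood-forming cells in the pooled livers had a part in the S100a8 and S100a9 values was not tested.

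The lysozymes were the other members past 2-fold. Lysozyme cuts bacterial cell wall, and in mice Lyz2 is the form of macrophages and neutrophils whereas Lyz1 is best known from Paneth cells of the intestine. Lyz2 gave 151 in the AL pool and 57.7 in the CR pool, a ratio of 2.62, on its single probe set. Lyz1 had 507 in AL and 199.97 in CR, a ratio of 2.54, on its brightest probe set, and a dimmer probe set stood at -1.24, with 186 and 78.8. Both of these Lyz1 probe sets were of the _x_at type, which can bind related transcripts. The only Lyz1 probe set without that mark lay below the limit in both pools, at 5.26 and 5.14. The separate levels of Lyz1 and Lyz2 are therefore uncertain. Among the 3161 measured genes with a mean intensity of at least 86.2, the class that holds both, 4.08% were at least 2-fold lower, against 2 of the 15 members there.

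**Figure D2:**
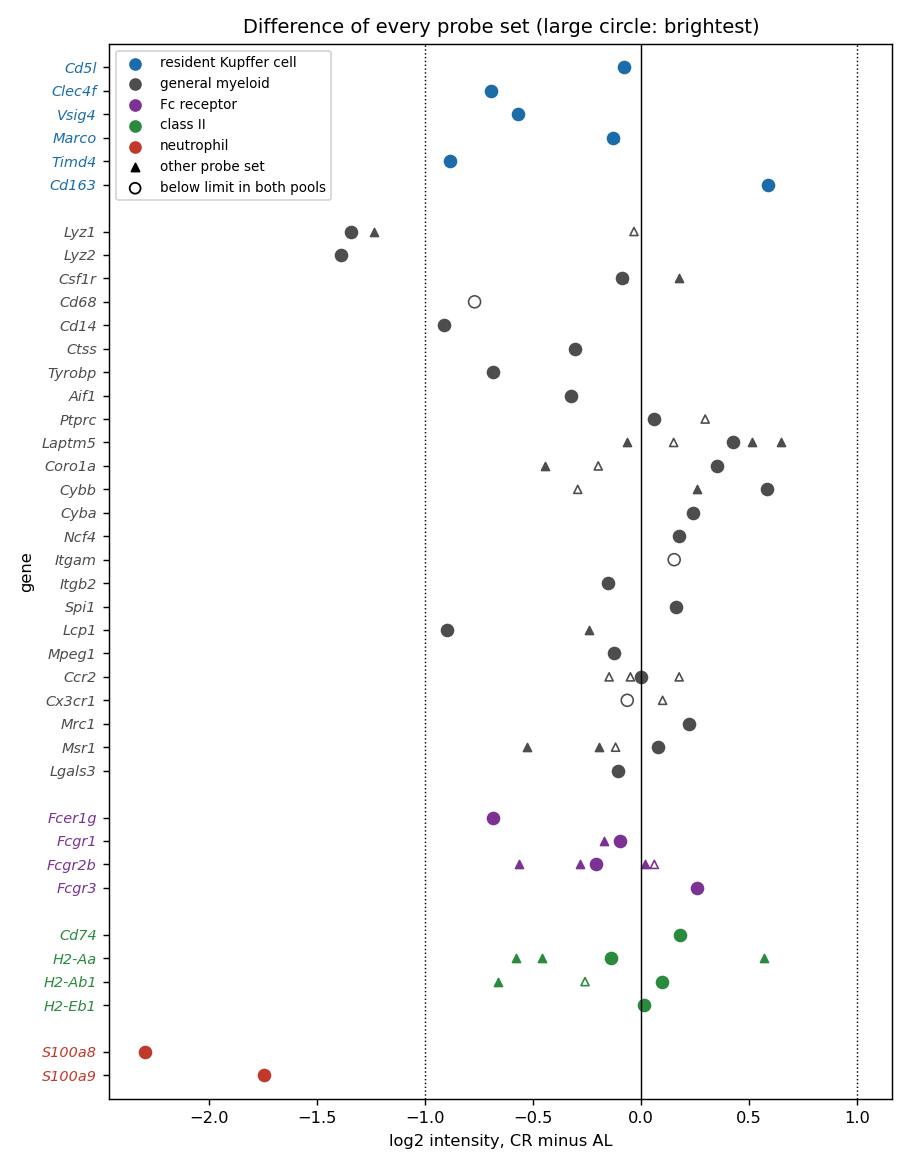
Log2 difference, CR minus AL, of all 72 probe sets of the members, with the brightest of each gene as a large circle, the others as triangles, and hollow symbols for probe sets below the limit in both pools. S100a8, S100a9, Lyz2 and 2 of the 3 Lyz1 probe sets lie left of the dotted line at -1, and the third Lyz1 probe set lies at -0.03 and is hollow.

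The genes past 2-fold form pairs of neighbours in the genome. In RefSeq's GRCm38.p6 gene table, no protein-coding gene lies between S100a8 and S100a9 or between Lyz1 and Lyz2. The 200 bases before the start of each gene are shown for these 4 members, which were low together, and for H2-Aa and H2-Eb1, class II members near 0. Sequences are from RefSeq (GRCm38.p6), 5′ to 3′ on the gene's strand, and 31 of the 40 members had an entry. The first entry of each gene is shown. Capitals mark matches on either strand to AGGAAGT (a core bound by PU.1 and other Ets factors), TATAAA (the core of the TATA box), CTGATTGG (the Y box of class II promoters) and TTGCNNAA (a C/EBP site, N being any base). None of the 4 motifs overlapped another in these windows.
S100a8, GRCm38.p6, chr3:90668871-90669070, plus strand: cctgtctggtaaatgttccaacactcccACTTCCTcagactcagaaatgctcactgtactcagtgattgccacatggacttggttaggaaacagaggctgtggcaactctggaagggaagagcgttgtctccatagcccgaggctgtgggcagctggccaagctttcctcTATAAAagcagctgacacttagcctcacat
S100a9, GRCm38.p6, chr3:90695722-90695921, minus strand: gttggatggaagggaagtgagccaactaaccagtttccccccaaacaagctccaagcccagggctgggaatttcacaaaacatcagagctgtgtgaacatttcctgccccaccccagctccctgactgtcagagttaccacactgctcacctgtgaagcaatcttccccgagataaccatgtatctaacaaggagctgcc
Lyz1, GRCm38.p6, chr10:117292869-117293068, minus strand: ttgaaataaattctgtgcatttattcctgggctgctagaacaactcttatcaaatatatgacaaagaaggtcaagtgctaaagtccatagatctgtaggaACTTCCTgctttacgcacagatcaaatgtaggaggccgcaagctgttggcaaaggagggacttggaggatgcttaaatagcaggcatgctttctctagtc
Lyz2, GRCm38.p6, chr10:117282273-117282472, minus strand: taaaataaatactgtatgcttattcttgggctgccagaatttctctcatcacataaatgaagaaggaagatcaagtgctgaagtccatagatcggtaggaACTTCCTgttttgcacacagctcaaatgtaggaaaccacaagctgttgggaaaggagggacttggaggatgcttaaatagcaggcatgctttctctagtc
H2-Aa, GRCm38.p6, chr17:34287824-34288023, minus strand: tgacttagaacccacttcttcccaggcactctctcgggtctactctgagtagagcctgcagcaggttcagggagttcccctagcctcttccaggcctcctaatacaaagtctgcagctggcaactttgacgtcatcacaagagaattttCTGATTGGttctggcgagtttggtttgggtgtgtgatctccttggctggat
H2-Eb1, GRCm38.p6, chr17:34305667-34305866, plus strand: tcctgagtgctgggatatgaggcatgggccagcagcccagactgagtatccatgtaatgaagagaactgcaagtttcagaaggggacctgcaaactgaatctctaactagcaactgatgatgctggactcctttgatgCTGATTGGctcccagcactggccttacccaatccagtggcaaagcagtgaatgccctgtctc

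The Lyz1 and Lyz2 windows were close copies of each other, with 172 identical bases in 199 aligned pairs (86.4%). Both held AGGAAGT on the opposite strand at the same place, from 100 to 94 bases before the start. S100a8 held the same motif from 172 to 166 bases before its start and TATAAA from 30 to 25. The S100a9 window held none of the 4 letter strings. CTGATTGG stood from 51 to 44 bases before the H2-Aa start and from 62 to 55 before that of H2-Eb1. Of 32851 promoter windows of the same length in the table, 6.34% held AGGAAGT, 7.47% TTGCNNAA, 3.54% CTGATTGG and 9.96% TATAAA. Of the 31 members with a window, 5 held AGGAAGT (Lyz1, Lyz2, Fcgr1, Ptprc and S100a8), 2 held TTGCNNAA (Cd68 and Fcgr3), 2 held CTGATTGG (H2-Aa and H2-Eb1) and 2 held TATAAA (Ptprc and S100a8). A member was counted if any of its windows held the motif, whereas the shares over all promoters are per window. The counts and shares are therefore not on the same footing. Members with AGGAAGT thus lay from -2.29 for S100a8 to 0.06 for Ptprc.

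Among the markers of resident Kupffer cells, Cd5l and Marco lay near 0, Clec4f was at least 1.5-fold lower and Cd163 at least 1.5-fold higher. Cd5l, a secreted macrophage scavenger protein also called AIM, gave 765 in the AL pool and 724 in the CR pool, a difference of -0.08. The bacterial scavenger receptor Marco had 90.1 and 82.5, a difference of -0.13. Both belong to the 6 resident Kupffer cell genes of the module, and both differed by less than 1.1-fold.

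Clec4f, a C-type lectin that in mice is almost restricted to Kupffer cells, had 196 in AL and 121 in CR, a difference of -0.69. Vsig4, the complement receptor CRIg that captures opsonized bacteria, had 102 and 68.6, a difference of -0.57. Timd4, a receptor for phosphatidylserine on dying cells, had 10.4 in AL and 5.63 in CR. Its CR value was below the limit, so Timd4 was at least 1.41-fold lower, and it was the only member measured through 1 pool alone. Cd163, which takes up haemoglobin bound to haptoglobin, went the other way, with 69.2 in AL and 104 in CR, a difference of 0.59, which was -0.43 after scaling on all spikes. It was the only member at least 1.5-fold higher, at a ratio of 1.505, and Cybb fell just short at 1.499. The number of members 1.5-fold higher was 0 after centring on array medians and 2 after loess. All 6 resident markers rested on 1 measured probe set each, so no second probe set in the measured range could be compared.

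With the CR value of Timd4 raised to the limit, the median of these 6 genes was -0.31. At the stricter limit of 21.0, the 75th percentile of all values, Timd4 dropped out and the group's median was -0.13. A further list of 22 Kupffer cell and macrophage genes, none of them a member, had 17 measured. Of these, 10 lay below 0, as did 52.1% of all measured genes, and 7 above. Their median was -0.16, and none was past 2-fold on its brightest probe set. Its largest differences were those of Mertk, a receptor for apoptotic cells, at 0.86 and of Nr1h3, the sterol sensor LXR alpha, at -0.78. The macrophage marker Adgre1 stood at -0.66, and the complement C1q chain genes at -0.68 (C1qa), 0.05 (C1qb) and -0.51 (C1qc). The 3 measured probe sets of C1qb ran from -1.25 to 0.12, so its direction is not settled. The list's summed intensity was 2604 in AL and 2741 in CR, of which the iron exporter gene Slc40a1 made up 1085 and 1214, and that of the 6 resident markers was 1232 and 1106.

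The general myeloid genes, 24 in number with 21 measured, had a median of -0.09. Of the 21, 12 lay below 0 and 9 above, near the share of 52.1% of all measured genes below 0. The 2 lysozymes were the only ones past 2-fold. Csf1r, the receptor for the growth factors CSF1 and IL-34 on which macrophages depend, had 747 in AL and 703 in CR, a difference of -0.09, and its 3 probe sets ran from -0.09 to 0.18. Mpeg1, which encodes the pore-forming protein perforin-2, had 215 and 197. Ctss, the lysosomal protease cathepsin S, had 664 and 538, a difference of -0.30.

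The lysozymes aside, 3 general myeloid genes were at least 1.5-fold lower, as were 9.49% of all measured genes. Cd14, the co-receptor for bacterial lipopolysaccharide, had 17.4 in AL and 9.23 in CR, a difference of -0.91, the largest below 2-fold. Lcp1, the leukocyte actin-bundling protein plastin, had 138 and 74.3 on its brightest probe set, a difference of -0.90, and -0.24 on the other. Tyrobp, the adaptor DAP12, had 64.9 and 40.4, a difference of -0.68. Aif1, a calcium-binding marker of macrophages also called Iba1, had 20.9 and 16.7, a difference of -0.32. Cd14, Lcp1 and Tyrobp were thus past 1.5-fold on their brightest probe sets, and Aif1 and the other Lcp1 probe set were not.

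Ptprc, the phosphatase CD45 found on all leukocytes, had 60.5 in AL and 63.0 in CR. Laptm5, a lysosomal membrane protein of blood cells, had 288 and 386, a difference of 0.43, and its 4 measured probe sets ran from -0.06 to 0.65. Coro1a, an actin regulator of leukocytes, had 23.8 and 30.3, a difference of 0.35 that turned to -0.44 on its other measured probe set. That probe set had 8.75 in AL and 6.43 in CR, the latter below the limit, so the size of its difference is uncertain. Laptm5 and Coro1a each had probe sets of both signs, so neither has a settled direction.

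The phagocyte oxidase makes superoxide to kill engulfed microbes, and its 3 members lay above 0 but within 1.5-fold. Its catalytic subunit gene Cybb had 50.2 in AL and 75.3 in CR, a difference of 0.58, with 0.26 on another measured probe set. The Cybb ratio of 1.499 was just short of 1.5-fold. The partner subunit gene Cyba had 45.6 and 54.0, a difference of 0.24, and the cytosolic subunit gene Ncf4 had 10.1 and 11.4, a difference of 0.18. After scaling on all spikes these differences were -0.43, -0.77 and -0.84. The pathway list of 6 oxidase genes, which includes these 3, had 5 measured, 3 above 0 and 2 below (Ncf1 at -0.24 and Rac2 at -0.02), a median of 0.18 and none past 2-fold.

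The other 6 measured general myeloid genes act in uptake, recruitment, adhesion and transcription. The mannose receptor gene Mrc1, which liver sinusoidal endothelial cells also express, had 129 in AL and 150.3 in CR, a difference of 0.22. The class A scavenger receptor gene Msr1 had 66.8 and 70.5, a difference of 0.08, although its other measured probe sets stood at -0.19 and -0.53. The lectin gene Lgals3, or galectin-3, had 97.8 and 90.8. Ccr2, the chemokine receptor that brings monocytes out of bone marrow, had 23.2 in both pools, and its 3 other probe sets were below the limit. The integrin beta chain gene Itgb2 had 11.2 and 10.1, a difference of -0.15, and Spi1, the gene of PU.1 itself, had 12.6 and 14.1, a difference of 0.16. None of these 6 differed by as much as 1.5-fold on its brightest probe set.

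Among the Fc receptor genes, the shared signalling chain had the largest difference. Fcer1g, the common gamma chain that carries the activation motif, had 33.4 in AL and 20.8 in CR, a difference of -0.68. The high-affinity IgG receptor gene Fcgr1 had 22.8 and 21.3, a difference of -0.10, with -0.17 on its other probe set. Fcgr3, an activating low-affinity receptor, had 18.5 and 22.2, a difference of 0.26, which was -0.76 after scaling on all spikes. The inhibitory receptor gene Fcgr2b, which sinusoidal endothelial cells express strongly, had 155 and 134, a difference of -0.21, and its 4 measured probe sets ran from -0.56 to 0.02.

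Fcer1g and Tyrobp, the adaptors of the module, thus stood at the same difference of -0.68, each on 1 probe set. The Fc receptor group's median was -0.15, with 3 of 4 genes below 0, as were 52.1% of all measured genes. In a list of 12 genes of signalling from such adaptors, 10 were measured, 6 below 0 and 4 above, with a median of -0.04. The kinase gene Btk was the only one past 2-fold, at -1.24, with 16.8 in AL and 7.10 in CR, the latter below the limit, hence at least 2.27-fold lower.

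The class II genes did not differ by as much as 1.2-fold on their brightest probe sets. Cd74, the invariant chain that guides class II molecules through the cell, had 39.1 in AL and 44.3 in CR, a difference of 0.18. H2-Eb1, a beta chain, had 21.9 and 22.1, a difference of 0.02. The alpha chain gene H2-Aa had 475 and 432, a difference of -0.14, and the beta chain gene H2-Ab1 had 102 and 109, a difference of 0.10. The probe sets of these genes differed among themselves. The 4 measured for H2-Aa ran from -0.58 to 0.57, and another measured for H2-Ab1 stood at -0.66, from 11.5 in AL to 7.29 in CR, the latter just below the limit. Averaging all probe sets of a gene gave the group a median of -0.07, so its sign is not settled. The brightest H2-Aa probe sets were of the _x_at type.

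Of 12 listed genes that load and control class II, 8 were measured, 5 below 0 and 3 above, with a median of -0.12 and none past 2-fold. The peptide-loading chain gene H2-DMa had the largest difference, with 10.2 in AL and 6.25 in CR, the latter below the limit and thus at least 1.38-fold lower, and Rfxap, a subunit of the factor that binds class II promoters, stood at 0.28. Dendritic cells, which carry much class II, were represented by 6 measured genes of 10, with a median of 0.13 and none past 2-fold. Their largest differences were those of the transcription factor gene Zbtb46 at 0.64 and the cytokine receptor gene Flt3 at -0.41. The 3 measured probe sets of Zbtb46 ran from -0.25 to 0.64, so its direction is not settled.

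**Figure D3:**
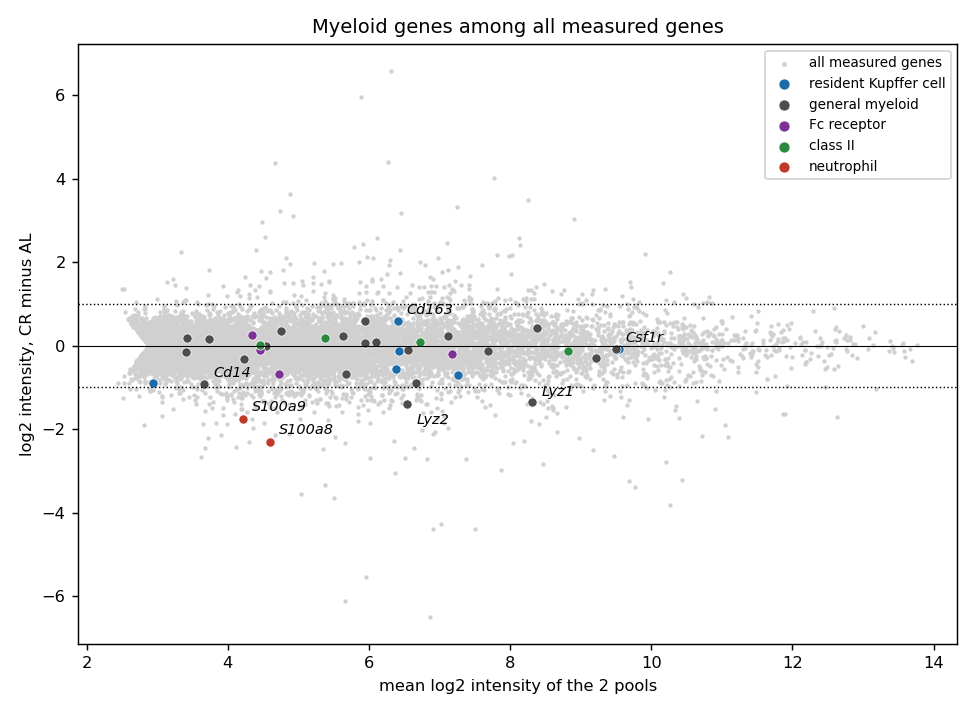
Log2 difference, CR minus AL, of all 12644 measured genes (grey) and the 37 measured members (coloured by role group) against the mean log2 intensity of the 2 pools, with dotted lines at 2-fold. S100a8, S100a9, Lyz1 and Lyz2 lie below the lower dotted line and the other 33 members lie between the lines.

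Probe sets of 1 gene did not always give the same difference. Of the 37 measured members, 26 had 1 measured probe set and 11 had several. Of those 11, 4 had probe sets of 1 sign (Lyz1, Cybb, Lcp1 and Fcgr1) and 7 had both signs. The median SD between probe sets was 0.30 for the 11 members, and 0.29 over the 4924 genes with several. A difference of a single member below that size is thus within the typical disagreement of probe sets, and for the 26 members with 1 measured probe set that disagreement is unknown.

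Other cells of the liver sinusoid gave a comparison for the myeloid genes. Sinusoidal endothelial markers had a median of 0.09 over 11 measured genes, with 6 above 0 and none past 2-fold. The largest were the lectin gene Clec4g at -0.50, with 0.20 on its other probe set, and the cadherin gene Cdh5 at -0.42. Stellate cell markers had a median of -0.08 over 12 genes, with none past 2-fold, from Lrat at -0.76 to Hand2 at 0.59. T cell markers had a median of -0.12 over 6 genes, 3 below 0 and 3 above, with Cd4 at -0.44 and Cd3e at -0.30. B and plasma cell markers had a median of -0.11 over 5 genes, with Ighm alone past 2-fold. The NK cell genes Nkg7 and Tbx21, the 2 measured of their list, were both above 0, Nkg7 at least 1.18-fold higher in CR since its AL value was below the limit, and Tbx21 at 0.19. Bile duct markers had a median of 0.29 over 3 genes, or 0.02 with values below the limit raised to it. Of these, Krt7, below the limit in AL, was at least 1.01-fold higher and Epcam stood at -0.31. Hepatocyte markers had a median of -0.06 over 8 genes, with Arg1 at 0.47 and Hnf4a at -0.46, its 4 probe sets running from -0.46 to 0.07.

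**Figure D4:**
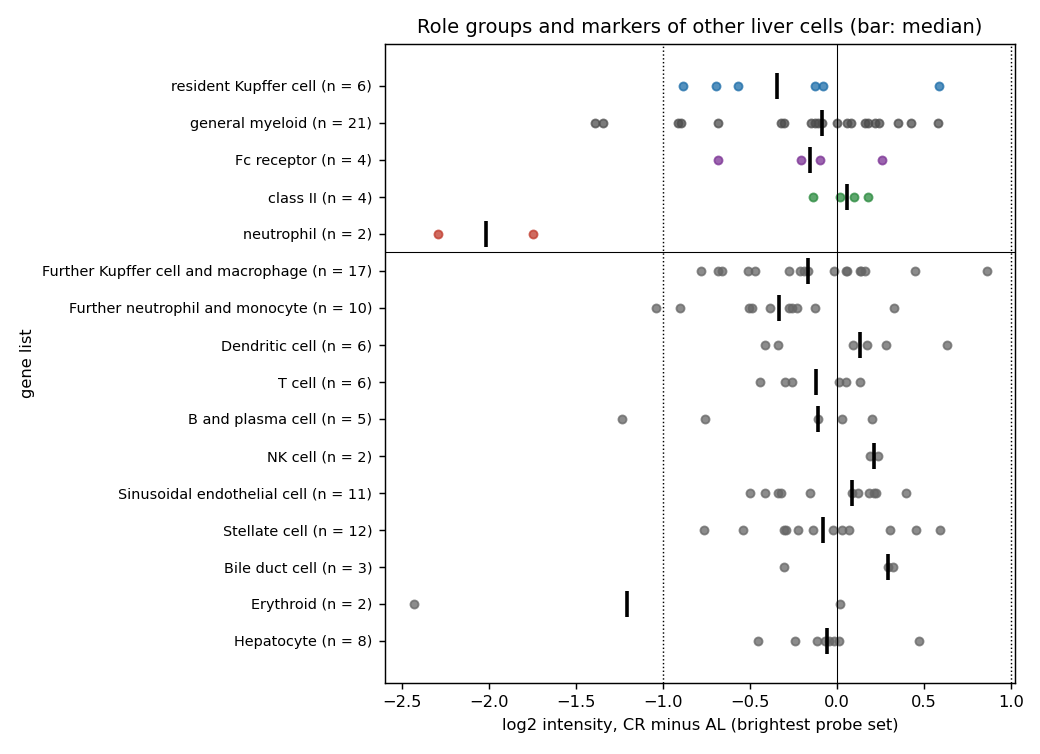
Log2 difference, CR minus AL, of each measured gene (point) and the median (bar) in the 5 role groups of the module and, under the line, in lists of markers of other liver cells. The neutrophil group, at a median of -2.02 over 2 genes, lies apart from the other role groups, and among the other lists Plac8, Ighm and Alas2 lie beyond 2-fold.

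By median the order from lowest was neutrophil (-2.02), resident Kupffer cell (-0.35), Fc receptor (-0.15), general myeloid (-0.09) and class II (0.06), and the ranges of the last 3 overlapped each other and that of the Kupffer cell genes. The 2 neutrophil genes of the module, S100a8 at -2.29 and S100a9 at -1.75, did not overlap any other role group, since the nearest member was Lyz2 at -1.39. Over all measured genes, 2.79% were at least 2-fold lower. That cut is milder than -1.39, and the share of all genes beyond -1.39 was not counted. The 10 measured genes of the further neutrophil and monocyte list ran from -1.04 to 0.33 and did overlap the other role groups. The gap was thus seen for S100a8 and S100a9 among the members. On the further list, Mmp8, Camp, Ltf and Mpo were below the lower limit in both pools. In CR, Lcn2 was below the limit, and Mmp9 and Ngp lay just above it. That list therefore cannot decide whether neutrophil genes in general shared the gap, and this was not tested. With 2 neutrophil genes and 1 array per diet the order of the role groups describes these pools only.

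**Figure D5:**
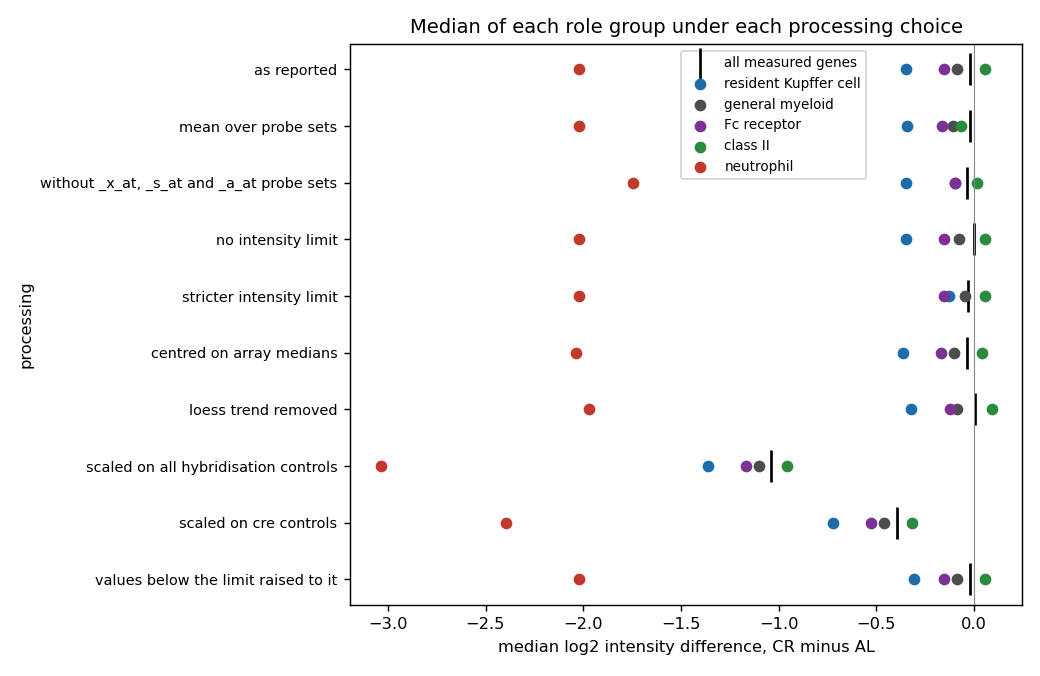
Median log2 difference of each role group (coloured points) and of all measured genes (black bar) under each processing choice. Scaling on the spikes moves groups and all genes together, from an all-gene median of -0.02 to -1.04 on all spikes and -0.40 on cre. This common shift cannot change the order of the groups. The neutrophil genes are lowest under every choice.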

How the data were processed

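The authors deposited intensity values, 1 column for each pool, which RMA had normalized according to the submitters' processing notes. The values are on a linear scale, and the RMA version, its options and any later step are not given in the sources used here. RNA of 3 mice was pooled before labelling of 6 ug, per the labels' protocols. No column of another sample was present.

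Intensities were converted to log2 and subtracted. Gene names came from the platform annotation of August 2016, in which 34945 probe sets had 1 symbol and 932 several, and all 72 probe sets of the members matched RefSeq's gene table by Entrez ID with the same symbol. Differences of at least 2-fold are a rule of size, not a test, and refer to the brightest probe set of a gene unless stated otherwise. A gene below the limit in 1 pool is given as a fold against the limit where its size is stated as a result.

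The members, their role groups and the 19 other lists were chosen with earlier results of these data known. All members are named, and of each other list the genes past 2-fold or else the 2 of largest absolute difference. The neutrophil granule genes, Jchain, Cd22, Mzb1, Pax5, Epb42 and Adgre1 were added after their values were seen. So were the C1q genes, Slc40a1, Ncf1, Rac2, Alb and Ass1. Alternatives were the mean over probe sets, leaving out probe sets of the types _x_at, _s_at and _a_at, no limit, a limit at the 75th percentile, centring on array medians, removing a loess trend (span 0.4), scaling on 18 hybridisation controls or on the 4 cre controls, raising values below the limit to it, and 1.5-fold in place of 2-fold. The steps were tested on simulated data. Calculations used pandas 2.3.3 and numpy 2.4.6 under Python 3.11.15, loess came from statsmodels 0.14.6, and figures were drawn with matplotlib 3.10.9.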

Additional observations from a re-analysis of the deposited data

How the results depend on the processing

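No paired analysis was possible because each diet had 1 pool on 1 array, and for the same reason no replicate could be left out. The 4 members at least 2-fold lower (S100a8, S100a9, Lyz1 and Lyz2) were the same 4 with no intensity limit (of 40), at the stricter limit (of 31), after centring and after loess. The shares of all genes 2-fold lower were then 1.94%, 4.25%, 2.90% and 2.61%, in that order. All 4 lay above the limit of 7.38 in both pools, so neither dropping that limit nor raising values to it could change them. When probe sets were averaged, 3 of 37 members were 2-fold lower, without Lyz1, against 1.82% of genes. Without the _x_at, _s_at and _a_at types, 2 of 27 were lower, Lyz2 and S100a9, against 2.92% of genes. The single probe set of S100a8 is then left out and the remaining one of Lyz1 is below the intensity limit. At 1.5-fold, 10 members were lower and 1 higher, against 9.49% and 6.76% of genes. The number 1.5-fold higher was 0 after centring, against 6.43% of genes, and 2 after loess, against 7.41%. With values below the limit raised to it, an alternative chosen after seeing the data, the same 4 members were 2-fold lower, against 2.66% of genes. Timd4 alone then moved by more than 0.29, to -0.49. Scaling on all hybridisation controls gave 24 members 2-fold lower, against 54.2% of genes, and all 37 below 0, with medians of -1.12 for the members, -1.36 for Kupffer cell, -1.10 for general myeloid, -1.17 for Fc receptor, -0.96 for class II and -3.04 for neutrophil genes. Scaling on cre gave 10 members lower, against 8.15% of genes, and medians of -0.48, -0.72, -0.46, -0.53, -0.32 and -2.39 in the same order. Each scaling took the same amount from every gene, so the members' median relative to that of all genes, -0.08, could not change. The shift was downward, so members already 2-fold lower could not change sign by it. Under the other settings no member past 2-fold changed sign. Averaging probe sets moved 5 of 37 members (Lyz1, Coro1a, Cybb, Lcp1 and H2-Ab1) by more than 0.29, the typical SD between probe sets, and leaving out the 3 types moved 1 of 27, Laptm5.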

Other observations

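Lists of genes that act beside the module, fixed with it, held some genes past 2-fold. Over all measured genes, 2.79% were at least 2-fold lower in CR and 1.80% at least 2-fold higher. Single genes past 2-fold in these lists are therefore no result about a list. Class I antigen presentation genes, which nearly all liver cells express, had a median of -0.55 over 8 measured genes, with 7 below 0 and none past 2-fold. B2m, the shared light chain, had 2679.9 in AL and 1489 in CR, a difference of -0.85 (another probe set -1.31). The immunoproteasome gene Psmb8 stood at -0.77, with 0.14 on its other probe set. Of 10 colony stimulating factors and chemokines, 5 were measured. The neutrophil attractant gene Cxcl1 was past 2-fold at -4.28, with 575 in AL and 29.6 in CR and its 3 probe sets from -4.28 to -2.25, while the Ccl2, Ccl7 and Cxcl2 genes were below the limit in both pools and Csf1 had 20.3 and 20.7.

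The 8 leukocyte integrin and adhesion genes had their median at -0.19, the endothelial adhesion gene Icam1 being alone past 2-fold at -1.09. For 9 scavenger and complement receptors the median was -0.20, and the fatty acid receptor gene Cd36 was past 2-fold at 1.02. Myeloid transcription factor genes, several of which hepatocytes also express, had a median of 0.15 over 6 genes, with 5 above 0 and none past 2-fold. The largest were Cebpb at 0.89, with -0.38 on its other probe set, and Klf4 at 0.59, the latter below the limit in AL and so at least 1.45-fold higher. Erythroid genes had a median of -1.21 over 2 genes, Alas2 and Epb42, the latter at 0.02. No cause of these differences was tested.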
